A study of Mus musculus with 72 samples.

Results

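Carbonic anhydrases are zinc enzymes that interconvert carbon dioxide and bicarbonate. In muscle they speed the removal of carbon dioxide and the buffering of protons, and they sit in different places: Car2 and Car3 in the cytosol, Car4 on the outer surface of the plasma membrane and of capillary endothelium, and Car14 in the sarcolemma with its active site outside the cell. Car3 is a slow enzyme that is very abundant in skeletal muscle and fat, while Car2 is the fast enzyme of red blood cells and many other tissues.

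The 4 genes were taken by symbol from the 20239 named genes measured, each with 1 probe set, and the other 12 of the 16 carbonic anhydrase genes measured serve as comparison. They were chosen by the genotype differences in these same arrays, above all by the level of Car3 in knockout fast muscle, so the differences between genotypes are given for them without a test. Transcripts were measured on 72 arrays of the tibialis anterior (TA), a fast muscle, and the soleus (SOL), a slow muscle, of 36 male C57BL/6 mice aged 5 months on standard chow. Muscle-specific Bmal1 knockouts (mKO, 18 animals) carried floxed Bmal1 and a Cre transgene driven by the Mlc1f promoter, which is active in muscle fibres, and Ctrl (18 animals) were their littermates without Cre. Presence of Cre and loss of Bmal1 cannot be told apart in this design. Each animal gave both muscles at a single Zeitgeber time (ZT), counted in hours from lights on, and lights went off at ZT12. There were 6 such times, every 4 h from ZT0, and 3 animals per genotype at each. Bmal1, listed as Arntl, is the clock protein that pairs with Clock and binds E-box letters in DNA.

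Values are log2 signals normalised together by RMA, so a difference of 1 is a doubling of signal, and the number of arrays limits their precision. Array medians lay between 6.67 and 6.84. Arntl averaged 8.14 in mKO TA and 8.21 in Ctrl TA, and 7.90 in mKO SOL and 7.81 in Ctrl SOL (n = 18 each). The position of its probes relative to the deleted stretch is not stated in the sources used here, so this level does not check the deletion. Its daily amplitude was 0.33 in mKO TA, with a peak at ZT21.76, and 1.09 in Ctrl TA, with a peak at ZT0.15. Amplitude and peak time were tested together for a difference between genotypes (limma moderated F, adjusted p = 1.70e-05). The labelled muscles carried their fibre markers: 12 of 12 slow fibre genes were lower in TA than in SOL of Ctrl and 11 of 12 fast fibre genes were higher. In that comparison 42.9% of all genes were called. One array stood apart: 16 hepatocyte transcripts of Ctrl TA at ZT0, replicate A, lay a median of 4.90 above their group, and 2 other Ctrl arrays lay 1.53 and 1.11 above theirs. The animals' identification numbers fall into the series BM3 (23 animals), BM2* (7) and BM2 (6), whose meaning the labels do not give, and values within these series are given as possible batches.

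RefSeq promoters, 250 bases before to 50 after the start of the gene, were held for 2 of the 4 genes, Car4 and Car14, and are shown because Bmal1 is the deleted factor and binds E-boxes. They are written 5′ to 3′ on the gene's strand, from GRCm38.p6, at chr11:84957504-84957803 (plus strand) for Car4 and chr3:95904636-95904935 (minus strand) for Car14. Capitals mark a general E-box, CANNTG, searched on both strands, which also takes in the canonical CACGTG.
Car4: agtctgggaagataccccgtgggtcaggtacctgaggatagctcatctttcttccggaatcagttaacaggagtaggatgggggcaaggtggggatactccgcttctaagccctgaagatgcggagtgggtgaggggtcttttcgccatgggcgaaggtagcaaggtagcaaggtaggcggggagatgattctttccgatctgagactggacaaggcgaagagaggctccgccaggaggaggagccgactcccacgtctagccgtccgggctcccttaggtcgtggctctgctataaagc
Car14: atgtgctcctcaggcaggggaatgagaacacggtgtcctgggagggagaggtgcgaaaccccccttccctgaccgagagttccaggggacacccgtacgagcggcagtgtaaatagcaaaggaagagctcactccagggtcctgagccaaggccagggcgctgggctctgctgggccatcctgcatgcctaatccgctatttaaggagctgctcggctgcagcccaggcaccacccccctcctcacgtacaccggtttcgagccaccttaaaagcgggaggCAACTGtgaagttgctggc
The canonical letters CACGTG were in neither window, against 7.15% of all 32851 promoters of this length, and the noncanonical CACGTT was in neither, against 4.68%. CANNTG was found 0 times for Car4 and 1 time for Car14, and 72.3% of all promoters hold it. A match or its absence describes these letters only.

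Car3, cytosolic and abundant in muscle fibres, had a lower signal in every mKO TA array than in any Ctrl TA array. At ZT0 the mKO TA arrays held 12.37, 12.07 and 11.77, against 13.67, 13.78 and 13.76 in Ctrl TA. At ZT4 they held 12.18, 11.95 and 12.22, against 13.81, 13.68 and 13.85 in Ctrl TA. At ZT8 they held 12.24, 12.23 and 11.86, against 13.82, 13.76 and 13.78 in Ctrl TA. The groups were apart at each of these times, and the mKO arrays were more spread than the Ctrl arrays. At ZT12 the mKO TA arrays held 12.03, 12.24 and 11.66, against 13.69, 13.78 and 13.74 in Ctrl TA. At ZT16 they held 12.45, 11.47 and 11.78, against 13.68, 13.72 and 13.78 in Ctrl TA. At ZT20 they held 12.21, 11.86 and 11.94, against 13.67, 13.66 and 13.60 in Ctrl TA. The highest mKO array and the lowest Ctrl array were 1.15 apart. The share of all genes without overlap between genotypes in TA was not counted, so how unusual this is cannot be said.

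Over all times Car3 averaged 12.03 ± 0.26 in mKO TA and 13.74 ± 0.067 in Ctrl TA (SD, n = 18 each). The difference was -1.71 ± 0.068 (SE), a 3.26-fold lower signal in mKO, and it ran from -1.83 at ZT16 to -1.64 at ZT20. In this contrast 14.8% of all genes passed an adjusted p of 0.05 (limma), 1369 higher and 1631 lower in mKO, and nothing is read from that share for genes chosen by it. In SOL, Car3 ran from 13.49 to 13.90 in mKO (median 13.79), against 13.68 to 13.97 in Ctrl (median 13.82), and the groups overlapped. The SOL difference was -0.047 ± 0.031, and 7.1% of all genes were called there. Within animals the TA difference minus the SOL difference was -1.66 ± 0.061, a contrast in which 2.71% of all genes were called. The conditions ran, from high to low, Ctrl SOL 13.81, mKO SOL 13.76, Ctrl TA 13.74 and mKO TA 12.03, and only the step down to mKO TA was wider than the spread of its neighbours. In bulk tissue, fewer cells of a type and less RNA per cell cannot be told apart.

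The Car3 difference in TA was of like size within each series of animals and without the array with hepatocyte transcripts. It was -1.66 in BM3 animals and -1.84 in BM2 and BM2* animals. In the latter, ZT8 and ZT12 held both genotypes, with 1 animal per genotype at ZT8 and 3 at ZT12, and both times were weighed equally. The TA difference was -1.71 without the Ctrl TA array at ZT0, replicate A. In SOL the difference was -0.028 in BM3 animals and -0.23 in the others. There the ZT8 pair held 13.49 in mKO and 13.87 in Ctrl, and the ZT12 difference was -0.074. Car3 lay near the top of the scale: its signal was 1.69 to 2.72 below the highest value of the array in mKO TA and 0.27 to 0.56 below it in Ctrl TA, 0.28 to 0.70 below it in mKO SOL and 0.17 to 0.49 below it in Ctrl SOL. Whether signals of that height are compressed was not tested. Fat also carries Car3, and 3 of 11 adipocyte markers were lower in mKO TA (Adig by 0.34, Retn by 0.19, Lipe by 0.11) and none higher by the adjusted test (limma). At an unadjusted p under 0.05 there were 6 lower and 1 higher. Of all genes 14.8% passed the adjusted test in TA. The mean level of the adipocyte list ran from 7.16 to 7.46 in mKO TA, against 7.26 to 7.58 in Ctrl TA, and from 7.61 to 8.57 in mKO SOL, against 7.66 to 8.54 in Ctrl SOL. Its part in the Car3 difference was not tested.

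**Figure D1:**
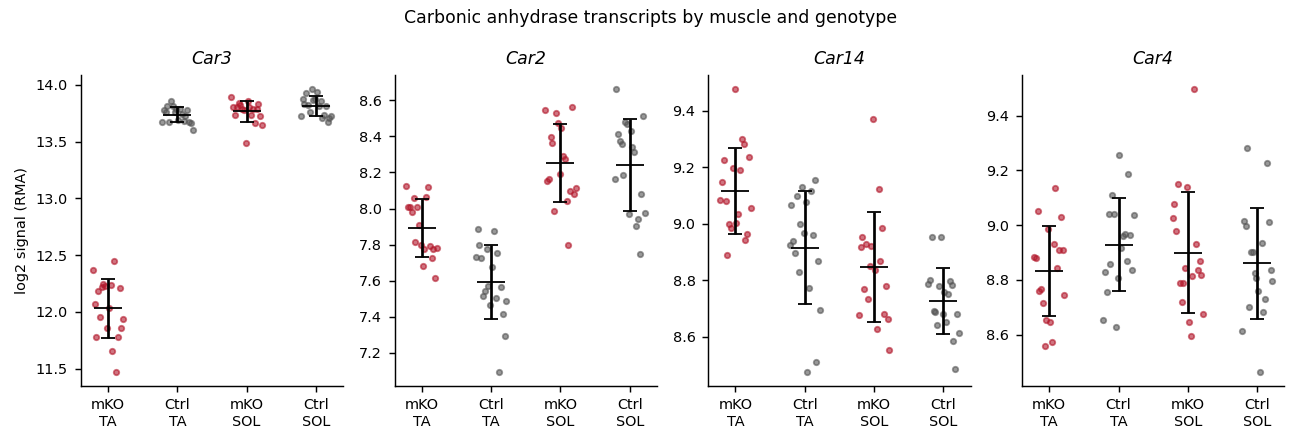
Log2 signal of Car3, Car2, Car14 and Car4 on every array (18 per condition), by genotype and muscle, with bars at the mean and SD and a scale of its own for each gene. Car3 is the gene with 2 separate levels: the mKO TA arrays all lie below the other conditions.

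Car2, the fast cytosolic enzyme, was 0.30 ± 0.054 higher in mKO TA, in the opposite direction to Car3. It ran from 7.62 to 8.13 in mKO TA (median 7.86), against 7.10 to 7.89 in Ctrl TA (median 7.57). The groups overlapped: 9 of 18 mKO arrays lay above every Ctrl array, and the mKO mean was higher at 6 of 6 times, by 0.15 (ZT12) to 0.41 (ZT16). In SOL Car2 ran from 7.80 to 8.56 in mKO (median 8.23) and from 7.75 to 8.66 in Ctrl (median 8.33), a difference of 0.0098 ± 0.064. The TA difference was 0.25 in BM3 animals and 0.24 in the others.

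Car14, the membrane-spanning enzyme, was 0.20 ± 0.053 higher in mKO TA and 0.12 ± 0.049 higher in mKO SOL. In TA it ran from 8.89 to 9.48 in mKO (median 9.08), against 8.48 to 9.15 in Ctrl (median 8.95). In SOL it ran from 8.55 to 9.37 in mKO (median 8.84), against 8.49 to 8.95 in Ctrl (median 8.72). Groups overlapped in both muscles, and the mKO mean was higher at 6 of 6 times in each. By series of animals the TA difference was 0.077 ± 0.065 in BM3 and 0.41 ± 0.15 in BM2 and BM2* animals. In SOL it was 0.052 ± 0.055 and 0.42 ± 0.13. The BM2 and BM2* values weigh ZT8, with a single animal per genotype, equally with ZT12. At ZT8 that pair held 9.48 in mKO and 8.97 in Ctrl in TA, and 9.37 and 8.68 in SOL. At ZT12 the difference was 0.30 in TA and 0.14 in SOL. Whether the series, the times they cover or that pair account for the gap between series was not tested.

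Car4, anchored on the outside of cells, differed least in TA. It ran from 8.56 to 9.14 in mKO TA (median 8.86), against 8.63 to 9.26 in Ctrl TA (median 8.94), with a difference of -0.097 ± 0.050. Its largest gap was at ZT12, where mKO was 0.33 lower, and at ZT0 mKO was 0.19 higher. In SOL it ran from 8.60 to 9.50 in mKO (median 8.84), against 8.46 to 9.28 in Ctrl (median 8.83), with a difference of 0.040 ± 0.067.

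The difference between fast and slow muscle in Ctrl was not used to choose the genes and was tested in 18 animals, each giving both muscles. Car2 was lower in TA than in SOL of all 18 animals, by 0.65 ± 0.053, a 1.57-fold lower signal (limma, adjusted p = 8.45e-12). Its within-animal differences ran from -1.22 to -0.15. Car14 was higher in TA in 16 of 18 animals, by 0.19 ± 0.038 (adjusted p = 0.00012). Car3 was lower in TA in 17 of 18 animals, but by 0.076 ± 0.043, which did not pass the test (limma, adjusted p = 0.164). Its within-animal differences had an SD of 0.073 in Ctrl and 0.22 in mKO. That SE thus holds the wider mKO spread, and a test on Ctrl animals alone was not run. Car4 was 0.069 ± 0.041 higher in TA (limma, adjusted p = 0.193). In this comparison 42.9% of all genes were called, so 2 called of 4 is near the background. Car2 differed by -0.67 in BM3 animals and by -0.59 in BM2 and BM2* animals, Car14 by 0.18 and 0.20, Car3 by -0.070 and -0.089, and Car4 by 0.014 and 0.18.

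In mKO animals the same within-animal difference is a description. Car3 was 1.73 lower in TA than in SOL, lower in 18 of 18 animals, with differences from -2.19 to -1.34. Car2 was 0.36 lower in TA of mKO, against 0.65 lower in Ctrl. Car14 was 0.27 higher in TA of mKO, against 0.19 higher in Ctrl. Car4 was 0.068 lower in TA of mKO, lower in 12 of 18 animals, against 0.069 higher in Ctrl, higher in 11 of 18 animals.

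Daily rhythm was fitted as a cosine with a period of 24 h, its amplitude being the distance from mean to peak. None of the 4 genes was called rhythmic in any muscle and genotype (limma moderated F, adjusted p from 0.186 to 0.984), and 1 of the 16 tests had an unadjusted p under 0.05. Among all genes, 1.76% were called in mKO TA, 2.70% in Ctrl TA, 5.68% in mKO SOL and 6.05% in Ctrl SOL. That test was Car3 in Ctrl SOL, with an amplitude of 0.089 and a peak at ZT7.72 (limma, adjusted p = 0.186). Car3 amplitude in TA was 0.11 in mKO and 0.058 in Ctrl. Car4 in mKO TA had an amplitude of 0.13 (limma, adjusted p = 0.464), Car14 in mKO SOL 0.12 (adjusted p = 0.281) and Car2 in Ctrl SOL 0.18 (adjusted p = 0.313).

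No rhythm difference between genotypes was called for the 4 genes, in TA (0.104% of all genes called) or in SOL (0.0395%), and none between TA and SOL of Ctrl (0.524%). Of these 12 tests 1 had an unadjusted p under 0.05, Car4 between TA and SOL of Ctrl (limma, adjusted p = 0.530). A rhythm of the amplitudes above was thus not detected with 3 animals a time, which does not show that it is absent. Each fit also took its residual spread from both genotypes. For Car3 in TA the SD within times was 0.30 in mKO and 0.056 in Ctrl. The Ctrl TA test of Car3 thus holds the wider mKO spread, and a fit to Ctrl alone was not run.

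**Figure D2:**
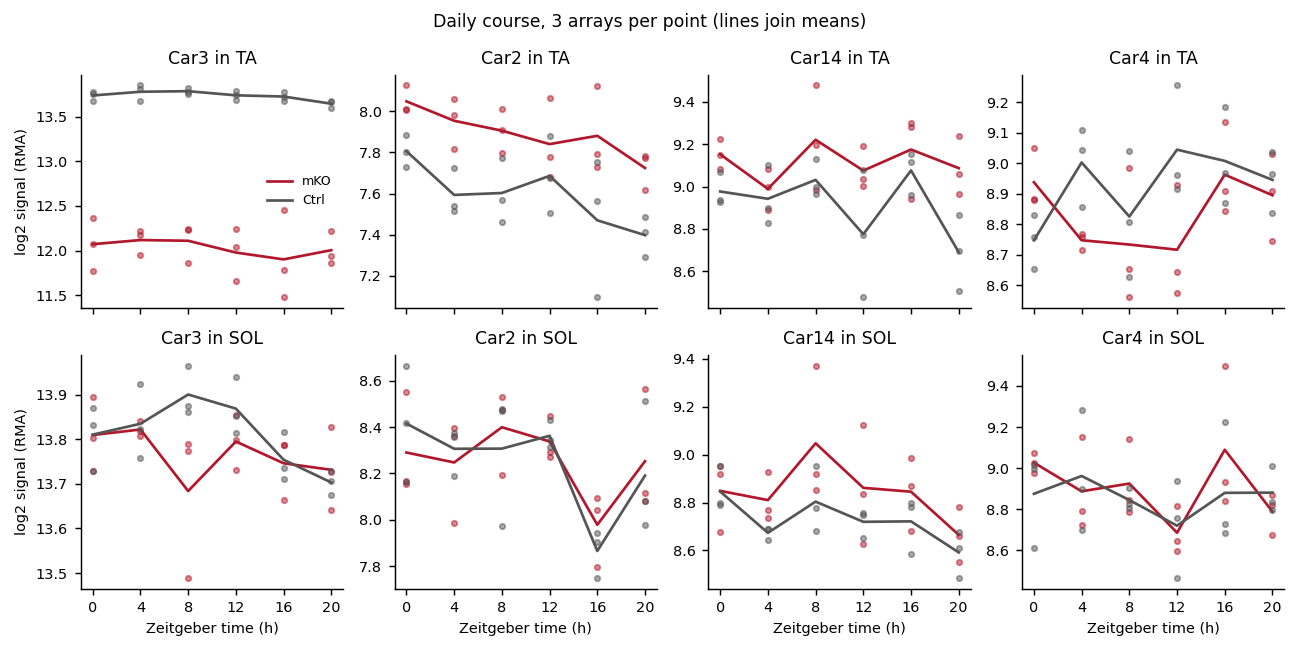
Log2 signal of the 4 genes against Zeitgeber time, in TA (upper row) and SOL (lower row). Points are single arrays, 3 per time and genotype, and lines join the means. In TA the mKO and Ctrl courses of Car3 run apart at all 6 times, with differences between -1.83 and -1.64.

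Of the 12 other carbonic anhydrases, 0 were higher and 1 was lower in mKO TA, where 14.8% of all genes were called, with a median difference of 0.081 against 0.020 over all genes (limma; 2 higher and 1 lower at an unadjusted p under 0.05). The one called was Car1, a cytosolic enzyme of red blood cells and gut, whose gene neighbours Car3 in the order Car13, Car1, Car3, Car2 of GRCm38.p6. Car1 averaged 5.99 ± 0.25 in mKO TA and 6.66 ± 0.20 in Ctrl TA (SD, n = 18 each), a difference of -0.67 ± 0.069 (limma, adjusted p = 1.27e-08), lower at 6 of 6 times. This is a low signal: both means lie below the lowest array median of 6.67, and in mKO TA it ran from 5.67 to 6.41, against 6.37 to 7.04 in Ctrl TA. How far a difference at this height is compressed by background was not tested. In SOL it was 0.24 ± 0.059 lower in mKO (adjusted p = 0.00676), and the TA minus SOL difference of these effects was -0.42 (adjusted p = 0.00177). Over the 24 group means Car1 and Car3 correlated with r = 0.70, Car2 and Car3 with r = 0.23, Car4 and Car3 with r = 0.22, and Car14 and Car3 with r = -0.71. These are descriptions over means that share genotype and muscle, and in TA deviations from group means the pair Car1 and Car3 had r = 0.22. Whether probe sets of Car1 and Car3 take up signal from each other's transcripts was not tested.

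In SOL 1 of these 12 was higher, Car7, a cytosolic enzyme known from neurons and muscle, by 0.14 ± 0.038 (limma, adjusted p = 0.0213), and 1 was lower, Car1, with a median of 0.024 over the 12 against 0.00091 over all genes, of which 7.1% were called. Car13, on the other side of Car1, differed by -0.031 ± 0.067 in TA and -0.057 ± 0.058 in SOL, called in neither. Car5b, the mitochondrial enzyme, differed by -0.046 ± 0.056 and -0.098 ± 0.096, and Car8 and Car11, relatives without catalytic activity, by 0.094 ± 0.055 and -0.036 ± 0.040 in TA. None of these was called. Between muscles of Ctrl, 3 of 12 were higher in TA and 3 lower, a share near the 42.9% called over all genes. Car11 was 0.71 ± 0.037 higher in TA (limma, adjusted p = 1.82e-16) and Car5b 0.55 ± 0.069 lower (adjusted p = 5.68e-08). Car8 was 0.30 ± 0.042 lower in TA (limma, adjusted p = 4.66e-07).

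**Figure D3:**
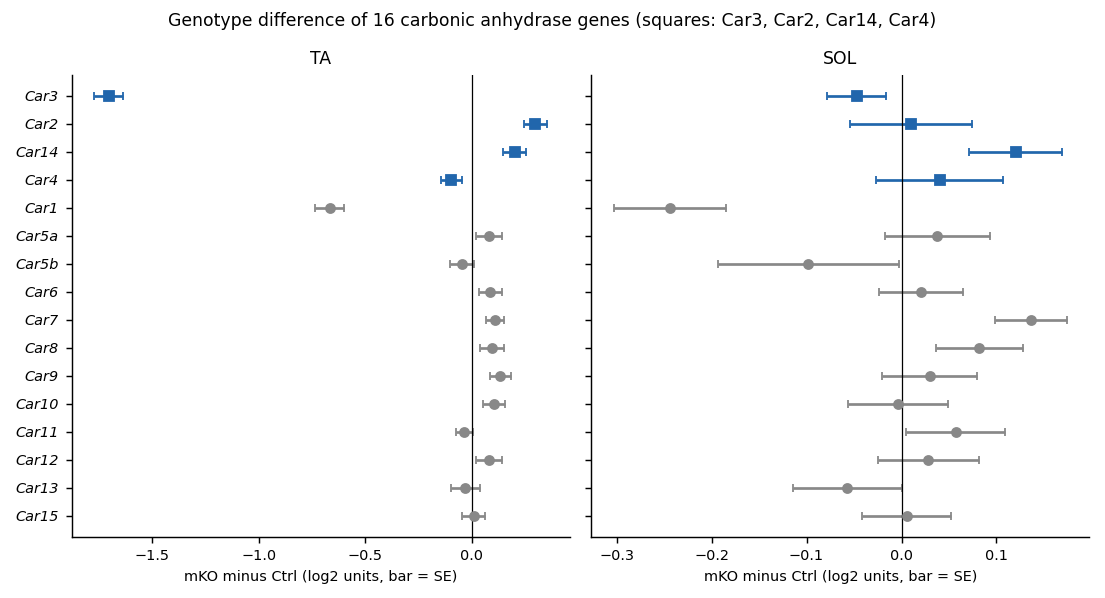
Difference of mKO minus Ctrl in log2 units with its SE for 16 carbonic anhydrase genes in TA (left) and SOL (right), drawn on different horizontal scales. Squares are the 4 genes described and circles the other 12. Car3 in TA (-1.71) lies far from the rest, with Car1 (-0.67, at a low signal) next.

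Bicarbonate and protons, which carbonic anhydrases make and consume, also cross membranes through transporters. A link between transporter and carbonic anhydrase differences was not tested. Of 9 measured bicarbonate and chloride transporters, 1 was higher and 1 lower in mKO TA, and likewise 1 and 1 in mKO SOL, beside 14.8% and 7.1% of all genes called in TA and SOL. Slc4a4, the electrogenic sodium bicarbonate cotransporter, was 0.91 ± 0.053 lower in mKO TA (limma, adjusted p = 5.98e-14) and 0.91 ± 0.045 lower in mKO SOL (adjusted p = 2.69e-15). Its 18 mKO arrays lay below its 18 Ctrl arrays in each muscle, and the share of all genes apart in this way was not counted. Slc4a4 ran from 7.57 to 8.69 in mKO TA, against 8.93 to 9.42 in Ctrl TA, and from 7.34 to 8.07 in mKO SOL, against 8.43 to 8.86 in Ctrl SOL. The called gene above was Slc4a9 in TA (0.15, adjusted p = 0.0483), and Slc4a3, an anion exchanger, in SOL (0.18, adjusted p = 0.0110). Slc4a4 was called rhythmic in mKO TA, with an amplitude of 0.30 (limma, adjusted p = 0.00447), against 0.15 in Ctrl TA (adjusted p = 0.387). The difference in rhythm between genotypes was not called for it (limma, adjusted p = 0.999), nor for any of the 9 transporters in TA (0 also at an unadjusted p under 0.05).

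Of 10 measured genes of proton and lactate export, 1 was higher and 1 lower in mKO TA, and 1 higher and 2 lower in mKO SOL, beside the same 14.8% and 7.1%. Slc9a2, a sodium proton exchanger, was 0.79 ± 0.039 higher in mKO TA (limma, adjusted p = 1.26e-15) and 0.16 ± 0.041 higher in mKO SOL (adjusted p = 0.0133). Its arrays held 9.16 to 9.67 in mKO TA, against 8.39 to 8.86 in Ctrl TA, without overlap. For all genes such a share was not counted. Slc16a1, a lactate and proton transporter, was 0.57 ± 0.046 lower in mKO TA (adjusted p = 8.49e-11) and 0.37 ± 0.046 lower in mKO SOL (adjusted p = 5.56e-07). Slc16a3, the exporter of fast fibres, was 0.13 ± 0.051 lower in mKO TA, which did not pass (adjusted p = 0.0815), and 0.37 ± 0.081 lower in mKO SOL (adjusted p = 0.00247). In Ctrl, Slc16a3 was 2.81 ± 0.070 higher in TA and Slc16a1 0.79 ± 0.041 lower in TA. The median difference over the list was 0.00074 in TA and -0.039 in SOL.

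Markers of other cell types and of fibre type were followed for the same arrays. Beside their counts stand the shares of all genes called, 14.8% in TA and 7.1% in SOL. In SOL 1 of 11 adipocyte markers, Adig, was lower in mKO, by 0.66. Of 12 slow fibre genes, 4 were higher in mKO TA (Casq2 by 1.35, Csrp3 by 1.17, Myoz2 by 0.81 and Myl3 by 0.44), and 2 were higher and 5 lower in mKO SOL. The slow fibre list ran from 7.92 to 8.59 in mKO TA, against 7.61 to 8.40 in Ctrl TA. Of 12 fast fibre genes 1, Mylpf, was higher in mKO TA (0.27), and 1 was higher and 2 lower in mKO SOL.

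No erythroid marker (of 5), macrophage marker (of 8) or hepatocyte marker (of 16) was called in either muscle (limma), beside 14.8% of all genes in TA and 7.1% in SOL. At an unadjusted p under 0.05 there was 1 erythroid gene higher and 1 hepatocyte gene lower in mKO SOL, and 1 macrophage gene higher in mKO TA. All 16 hepatocyte differences were below 0 in TA, from -0.86 to -0.048 (median -0.33). That fit holds the Ctrl TA array at ZT0, replicate A, a median of 4.90 above its group, which widens their residual spread. The lack of calls thus does not show that hepatocyte transcripts were alike in both genotypes. The erythroid list, of cells rich in Car2 and Car1, ran from 5.34 to 5.99 in mKO TA, against 5.36 to 5.94 in Ctrl TA. Of 12 endothelial markers 1 was lower in mKO TA (Vwf, by 0.10) and 1 higher in mKO SOL (Kdr, by 0.22), and the list ran from 8.82 to 9.09 in mKO TA, against 8.81 to 9.18 in Ctrl TA. Of 5 Schwann cell markers none was called in TA (0 also unadjusted), and Mbp was lower in mKO SOL, by 0.28. The part of these lists in the carbonic anhydrase differences was not tested.

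Deviations from group means show how arrays of 1 group vary, and were set against each other with permutation tests of 100000 resamples within groups, two-sided, on 36 animals. Across both muscles of the same animal, Car4 deviated together with r = 0.60 (rho = 0.62, adjusted permutation p = 0.00276 over 4 genes), Car3 with r = 0.56 (rho = 0.57, adjusted permutation p = 0.00564) and Car14 with r = 0.51 (rho = 0.45, adjusted permutation p = 0.00899). Car2 had r = 0.21 (rho = 0.25, adjusted permutation p = 0.186). The median over all 20239 genes was 0.028, and 1.61% of them reached 0.5. For Car3, Car4 and Car14 r without the 2 animals farthest from the median was 0.51, 0.53 and 0.41. It was 0.51, 0.51 and 0.54 within BM3 animals (n = 22), and 0.51, 0.67 and 0.20 within BM2 and BM2* animals (n = 11). Car3 had r = 0.66 in mKO animals and 0.18 in Ctrl animals (n = 18 each), and this difference was not tested. Both arrays of an animal also carry the same replicate letter. What an animal shares and what a letter shares were thus not separated in these correlations.

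**Figure D4:**
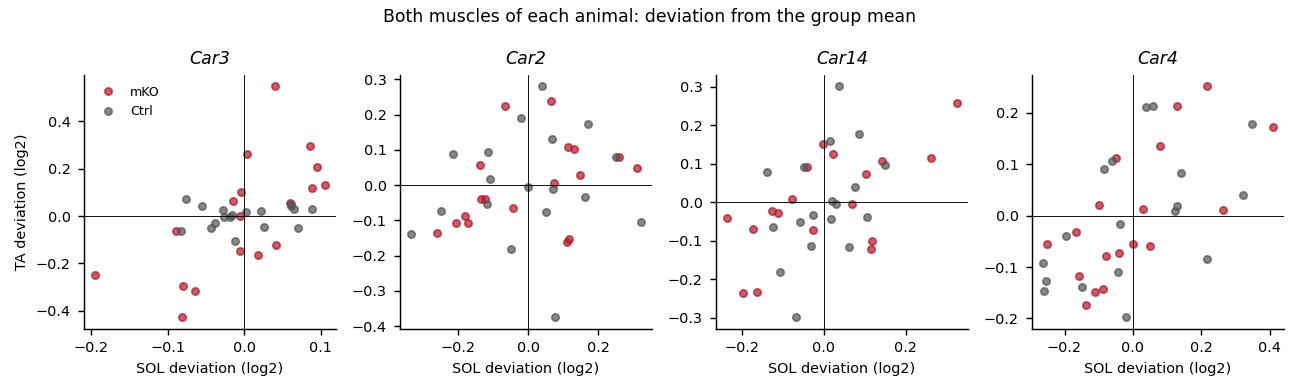
Deviation of each animal from the mean of its genotype and time, TA (vertical) against SOL (horizontal), in log2 units, for 18 mKO and 18 Ctrl animals. Points lie along a rising direction for Car3 (r = 0.56), Car4 (r = 0.60) and Car14 (r = 0.51), and hardly for Car2 (r = 0.21).

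With marker lists, 3 of 10 pairs passed. Car4 deviated with the endothelial list in SOL (r = 0.61, rho = 0.57, adjusted permutation p = 0.0315; r = 0.58 without the 2 farthest arrays), where it is known to sit on capillaries, and had r = 0.48 in TA (adjusted permutation p = 0.0678). Within BM3 and within BM2 and BM2* animals r was 0.80 and 0.55 in SOL. Car2 deviated with the erythroid list in SOL (r = 0.49, rho = 0.47, adjusted permutation p = 0.0188, and r = 0.44 without the 2 farthest), with r = 0.33 and 0.61 within the series. In TA this pair had r = 0.23 (adjusted permutation p = 0.314), with -0.33 and 0.51 within the series. The 5 erythroid genes measured averaged 5.77 in SOL of each genotype, a low signal below the lowest array median of 6.67. Car3 deviated with the slow fibre list in SOL (r = 0.59, rho = 0.57, adjusted permutation p = 0.0188, and r = 0.52 without the 2 farthest), with 0.70 and 0.38 within the series. In TA it had r = 0.20 with that list (adjusted permutation p = 0.268). Shares of all other genes that reached the r of the 3 passing pairs in SOL were 3.12%, 0.949% and 0.865%, in the order above. Car3 with the adipocyte list had r = 0.28 in TA and 0.19 in SOL, and Car14 with the Schwann cell list had r = -0.20 in TA and 0.19 in SOL, none of them called.

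The genes whose pattern over the 24 group means was most like that of Car3 were Maob, a mitochondrial monoamine oxidase (r = 0.96), Mreg (0.93), Lrrcc1 (0.92), Pogz (0.92) and Tpp1 (0.91). With rank correlation 0 of these 5 were among the first 5. Car3 averaged 12.03 in mKO TA and 13.74 to 13.81 in the other conditions. A high r with its means thus largely restates a lower signal in mKO TA, by which Car3 was chosen. For Car2 the most alike were Uchl3, Eci1 and Ogdh (r = 0.93 each), and 2 of these 3 were also named by rank correlation. Uchl3 is a ubiquitin hydrolase, Eci1 an enzyme of fatty acid oxidation and Ogdh one of the citrate cycle. For Car14 they were Scamp2 (0.89), Rhot2 (0.88) and Stub1 (0.86), and for Car4 Prl7c1 (0.81), Cyth4 (0.66) and Gatc (0.65), with 2 of 3 and 1 of 3 also named by rank correlation. Over deviations in the 36 TA arrays the closest to Car3 were H2bc9 (0.69), Znhit1 (0.68), Ublcp1 (0.63), Corin (0.62) and Rsad1 (0.62), of which 1 of 5 was also named by rank correlation.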

How the data were processed

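RNA of TA and SOL from 36 animals was hybridised to 72 arrays, 1 per muscle and animal. The deposited values are log2 signals normalised with RMA, per the submitters' processing notes (version not given), with each probe set standing for 1 gene. Of 21225 probe sets, 20239 had a named gene and were tested; 986 were not. No value was rescaled or filtered. Groups, animals and replicate letters came from the labels. Closest arrays correlated with r = 0.996 and none was a copy.

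Genotype differences were fitted with limma 3.58.1 (R 4.3.3) with a term for each genotype at each time, averaged over the 6 times. The muscle difference and its interaction with genotype used TA minus SOL within animals, and rhythm a cosine and sine of 24 h. Each fit held both genotypes and took a single residual variance per gene over them. Benjamini-Hochberg adjustment ran over the 20239 genes, with a threshold of 0.05. The fits were tested on simulated data. The pairing of SOL and TA comes from the animal numbers in the labels, and deviations of such pairs over all genes had a median r of 0.046.

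The members and lists were chosen with earlier results of these data known. Genes named are the 4 members, called genes of the lists, fixed transporters and carbonic anhydrases, and the genes most like a member. Up to 3 called genes per direction and comparison of a list were named, except that all 4 slow fibre genes higher in mKO TA were named. Slow and fast fibre genes called in mKO SOL were given as counts only. The alternatives were array weights, moderation, normalisation, a filter, series of animals, replicate letters, times as levels and leaving out each animal.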

Additional observations from a re-analysis of the deposited data

Results flagged for a closer look

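The following differed between TA and SOL in their response to genotype, by the test of the difference itself within 36 animals (limma, TA minus SOL, mKO minus Ctrl). In this contrast 2.71% of all genes were called. Car1, 1 of 12 other carbonic anhydrases, differed by -0.42 (adjusted p = 0.00177). Slc9a2, 1 of 10 export genes, differed by 0.63 (adjusted p = 2.96e-08). Of 12 slow fibre genes 3 were called, Casq2 by 0.70 (adjusted p = 6.98e-08), Myoz2 by 0.76 (adjusted p = 0.00140) and Myh7b by 0.27 (adjusted p = 0.0432). Mbp, a myelin gene and 1 of 5 Schwann cell markers, differed by 0.29 (adjusted p = 0.00174). Mbp was called lower in mKO SOL and not called in TA. No gene of the other lists was called.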

How the results depend on the processing

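For the 4 genes, 381 values under alternatives moved by less than the spread or kept their call, as did all 1584 with 1 animal left out. The 4 exceptions were Car3 between muscles of Ctrl, called after a further quantile normalisation (-0.12, limma adjusted p = 0.0201), and, in BM2 and BM2* animals, Car14 in TA (0.41) and SOL (0.42) and Car3 in SOL (-0.23). Moderation, the filter and the replicate block leave a genotype estimate as it is. Leaving out an animal of 1 genotype likewise leaves the rhythm amplitude of the other as it is. Part of the 381 and of the 1584 was thus fixed beforehand. Counts over all genes moved more. With array weights, TA genotype calls were 5388 (3000 in the report's fit), calls in TA among the other carbonic anhydrases and the transporter lists (pathway genes) 10 (against 5), interaction calls 1201 (549), rhythm calls in mKO TA 563 (357) and SOL rhythm differences 13 (8). In BM3 animals alone the counts were 1524 in TA, 538 in SOL with 3 pathway genes (against 7), 167 for the interaction, 160, 156, 273 and 394 for rhythm in mKO TA, Ctrl TA, mKO SOL and Ctrl SOL, 2 and 0 for rhythm differences in TA and SOL, and 17 between muscles. In BM2 and BM2* animals, with 4 per genotype, they were 184 in TA (3 pathway genes) and 59 in SOL (1). Times as levels gave 214, 335, 565 and 713 rhythm calls in the same order. The filter gave 14 SOL rhythm differences and quantile normalisation 161 between muscles.

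Deviations of mKO and Ctrl arrays with the same replicate letter correlated over 0.1 in 21 of 36 pairs (median r = 0.153, from -0.280 to 0.322), a higher median than the 0.046 of the same animal. Not every pair passed 0.1 and the labels give the letters no meaning, so they were not used as pairs, and what such arrays share was not tested. Both arrays of an animal carry the same letter, so letter and animal were not separated in the same-animal correlations. With the replicate block, genotype calls were 3156 in TA and 1536 in SOL. Without the pairing by animal, rhythm differences between muscles were 57 (106 with it), and no other count moved by over 1.5 times. Leaving out 1 animal gave 2672 to 3523 calls in TA, 1316 to 1479 in SOL, 3 to 13 SOL rhythm differences and 65 to 117 between muscles, and Car3 in TA from -1.75 to -1.67. The causes were not tested, other than fewer animals in the series fits. The number of arrays sets the precision.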
